A study of Mus musculus with 45 samples.

Results

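The transcripts described here are those of 10 interleukin and interferon receptor genes, Il2ra, Il2rb, Il2rg, Il4ra, Il7r, Il21r, Il6ra, Il6st, Ifngr1 and Il10ra. They were taken by symbol from a gene count table of 55450 rows, and all 10 were found. The table came from RNA-seq of 45 libraries of lymphocytes sorted from the popliteal draining lymph nodes of mice that were injected in the hind footpad with 20 µl of an emulsion of incomplete Freund's adjuvant holding 50 µg ovalbumin and 5 µg lipopolysaccharide. Wild type (WT) littermates were compared with S1PR4-/- mice, which lack a G protein-coupled receptor for sphingosine-1-phosphate in every cell (strain B6.129P2-S1pr4tm1Dgen/J, on a C57/BL6 background after 10 or more generations of crossing). Male and female mice of 8 to 12 weeks were used, and animals of both genotypes were immunized. Follicular helper (Tfh) CD4+ T cells, gated as PD1+ CXCR5+, and non-Tfh CD4+ T cells, gated as negative for both, were sorted on day 6. Germinal center (GC) B cells, gated as B220+ GL7+ Fas+, and non-GC B cells, negative for GL7 and Fas, were sorted on day 9. There were 6 libraries in each genotype for Tfh, non-Tfh and GC B cells, 5 for WT non-GC B cells and 4 for S1PR4-/- non-GC B cells. T and B lymphocytes were collected on different days, so that lineage and day cannot be told apart. Nothing in the labels gives which libraries came from separate mice, and p-values measure the spread between libraries.

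Cytokine receptors of lymphocytes are built from shared and private chains. The common gamma chain, encoded by Il2rg, pairs with private chains for IL-2 (Il2ra and Il2rb), IL-4 (Il4ra), IL-7 (Il7r) and IL-21 (Il21r), and these receptors signal through Janus kinases and STAT factors. IL-6 is bound by Il6ra and signals through gp130, encoded by Il6st, while Ifngr1 and Il10ra are the ligand-binding chains for interferon gamma and IL-10. In germinal centers, IL-21 and IL-4 from Tfh cells act on B cells. IL-7 is known to maintain naive T cells, and IL-2 signaling is known to restrain Tfh differentiation.

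For Il7r, Il4ra and Il21r, 300 bases are shown that lie mostly upstream of the start annotated by RefSeq (GRCm38.p6). The gene positions given in this text come from another annotation, GENCODE M21, and the starts differ for Il7r and Il4ra. By GENCODE the whole Il7r stretch lies inside the gene, whose minus-strand start is at base 9530176. Most of the Il4ra stretch also lies inside its gene, while the Il21r stretch lies mostly upstream by both. Il7r and Il4ra were the members with the lowest Tfh levels relative to non-Tfh cells, and Il21r is the neighbour of Il4ra on chromosome 7. The gene bodies of Il4ra (mm10, chr7:125552120-125579474, plus strand) and Il21r (mm10, chr7:125603429-125633570, plus strand) are 24.0 kb apart with 0 annotated genes between them. Capitals mark matches, on either strand, to 4 short motifs: the STAT element TTCNNNGAA, the KLF element CACCC, the FOXO element TGTTTAC and the RUNX element TGTGGT.
Il7r, chr15:9529827-9530126, minus strand: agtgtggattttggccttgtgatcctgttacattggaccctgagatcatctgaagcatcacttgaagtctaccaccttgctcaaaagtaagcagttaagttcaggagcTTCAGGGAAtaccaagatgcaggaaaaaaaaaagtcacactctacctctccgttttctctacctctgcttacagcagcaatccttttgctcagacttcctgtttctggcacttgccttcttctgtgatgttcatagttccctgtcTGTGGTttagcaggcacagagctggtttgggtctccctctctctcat
Il4ra, chr7:125552021-125552320, plus strand: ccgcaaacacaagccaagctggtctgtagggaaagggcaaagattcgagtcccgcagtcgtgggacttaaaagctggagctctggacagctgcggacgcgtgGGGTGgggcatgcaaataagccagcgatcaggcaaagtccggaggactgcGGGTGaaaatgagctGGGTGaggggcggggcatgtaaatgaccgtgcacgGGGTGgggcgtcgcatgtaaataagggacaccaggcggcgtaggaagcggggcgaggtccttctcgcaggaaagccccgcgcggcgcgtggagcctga
Il21r, chr7:125603179-125603478, plus strand: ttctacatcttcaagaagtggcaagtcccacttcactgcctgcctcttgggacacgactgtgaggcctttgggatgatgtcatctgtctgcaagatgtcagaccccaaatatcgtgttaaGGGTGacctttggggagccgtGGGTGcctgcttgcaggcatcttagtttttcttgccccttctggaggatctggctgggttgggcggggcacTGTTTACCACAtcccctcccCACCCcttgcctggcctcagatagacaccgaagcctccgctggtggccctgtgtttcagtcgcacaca

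Start regions were found for 8 of the 10 members. The STAT element was in that of Il7r alone, against 8.3% of 32851 mouse start regions of the same length. The Il4ra region held 4 KLF elements and the Il21r region 3, and 6 of the 8 members held at least 1, against 57.5% of all regions. The FOXO element was in the Il21r region alone (3.65% of all regions), where it overlapped a RUNX element. RUNX elements were also in the Il7r and Il2rg regions, and 16.8% of all regions held one. These are matches of letters and no measure of binding.

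The libraries held 26299429 to 45548215 expected counts each, and levels are given as CPM, counts relative to each library's total after scaling by the trimmed mean of M values. S1pr4, which marks the knockout, had 0 to 40 counts in S1PR4-/- and 505 to 6305 in WT libraries. Summed over 12 T cell markers, the T cell libraries held 8501 to 11650 CPM and the B cell libraries 70.2 to 204.8 CPM. The Tfh libraries carried B cell markers to differing extents. Leaving out Cd22, which was itself at 104.5 to 260.3 CPM in Tfh libraries, the other 11 summed to 22.6 to 316 CPM in WT Tfh and 7.17 to 134.6 CPM in S1PR4-/- Tfh libraries, against 7448 to 15660 CPM in B cell libraries. The same 11 markers summed to 9.98 to 43.4 CPM in WT and 7.60 to 13.1 CPM in S1PR4-/- non-Tfh libraries, which overlapped the Tfh libraries of each genotype. All 12 B cell markers were over 1 CPM in at least 1 library of each Tfh group, against at most 11 in a WT non-Tfh library. In sorted bulk RNA, fewer cells of a type and less RNA per cell cannot be told apart.

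**Figure D1:**
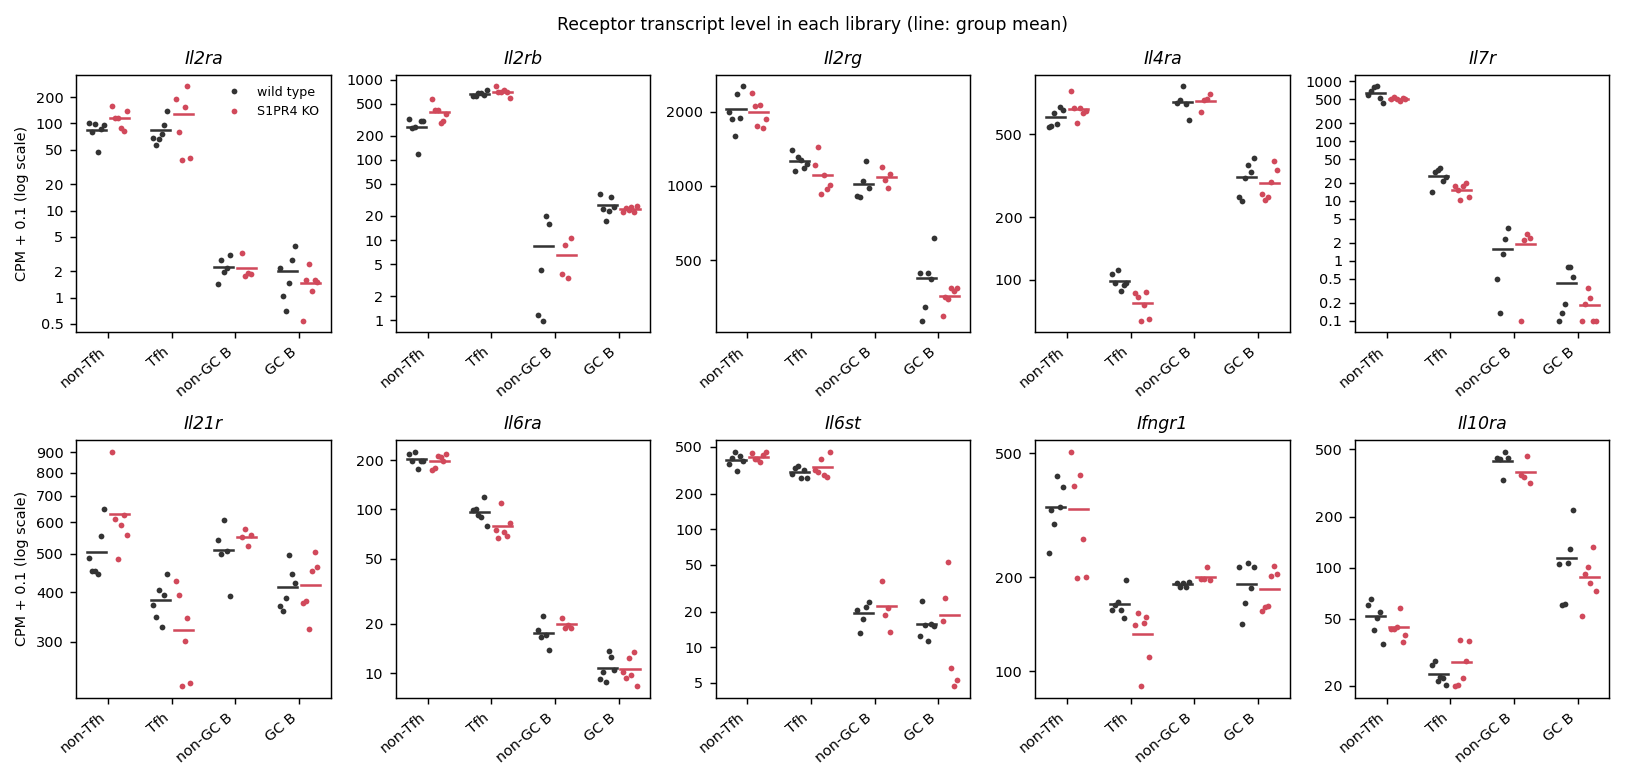
Level of each receptor transcript in each library, as CPM plus 0.1 on a log scale that differs between panels, for non-Tfh, Tfh, non-GC B and GC B cells; black points are WT, red points S1PR4-/-, and each line is a group mean. Il7r spans the widest range, from 822 CPM in a WT non-Tfh library to 0 in 4 GC B libraries and 1 non-GC B library, while all group means of Il21r lie between 321.5 and 629 CPM.

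Tfh cells carried less of most of these receptor transcripts than non-Tfh cells, and more of one. In WT, 6 of the 10 members were lower in Tfh cells (Il7r, Il4ra, Il10ra, Il6ra, Ifngr1 and Il2rg), 1 was higher (Il2rb) and 3 did not pass the test. A gene was called where edgeR's quasi-likelihood test gave an adjusted p under 0.05 over all genes tested and the fold change exceeded 1.5. By that rule 43.2% of the 13481 genes tested were called, 22.8% higher and 20.4% lower. The median log2 difference over the 10 members was -0.87. Among S1PR4-/- cells 7 members were lower and 1 higher in Tfh cells, against 43.4% of genes called.

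Il7r, the IL-7 receptor alpha chain (mm10, chr15:9505788-9530176, minus strand), differed most. In WT non-Tfh cells its level ran from 433 over a median of 636 to 822 CPM, and in WT Tfh cells from 14.1 over 27.2 to 35.4 CPM. The S1PR4-/- non-Tfh libraries held 459.8, 507 and 537 CPM (lowest, median, highest) and the S1PR4-/- Tfh libraries 10.3, 16.5 and 19.7 CPM. Every Tfh library lay below every non-Tfh library by more than 10-fold. The log2 fold change was -4.60 ± 0.236 (SE, edgeR adjusted p = 5.51e-10) in WT and -5.02 ± 0.152 (adjusted p = 1.7e-11) in S1PR4-/- mice.

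Il4ra, the ligand-binding chain for IL-4, was the next. Its lowest, median and highest levels were 542, 597 and 678 CPM in WT non-Tfh and 88.0, 96.3 and 111.7 CPM in WT Tfh libraries. S1PR4-/- non-Tfh libraries held 564, 658 and 805 CPM and S1PR4-/- Tfh libraries 63.6, 79.5 and 87.7 CPM. The groups did not overlap in either genotype. The log2 fold change was -2.61 ± 0.0776 (adjusted p = 7.27e-12) in WT and -3.10 ± 0.102 (adjusted p = 3.46e-11) in S1PR4-/- mice.

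Within the IL-2 receptor the 3 chains moved apart. Il2rb, the signaling beta chain (mm10, chr15:78479256-78495271, minus strand), ranged from 620 to 735 CPM in WT Tfh and from 118 to 322 CPM in WT non-Tfh libraries, a log2 rise of 1.36 ± 0.178 (adjusted p = 8.61e-06). The rise in S1PR4-/- mice was 0.86 ± 0.139 (adjusted p = 7.8e-05), from 395 ± 104 to 707 ± 79.1 CPM (mean ± SD, n = 6). Il2rg, the common gamma chain (mm10, chrX:101264378-101268255, minus strand), fell by 0.70 ± 0.0964 on the log2 scale in WT (adjusted p = 1.34e-05), from 2047 ± 349 to 1258 ± 88.1 CPM. Its fall in S1PR4-/- mice was similar in size, with a log2 fold change of -0.83 ± 0.11 (adjusted p = 1.16e-05). Il2ra, the alpha chain (mm10, chr2:11642807-11693193, plus strand), averaged 83.8 ± 30.3 CPM in WT Tfh and 84.4 ± 20.0 CPM in WT non-Tfh cells, and the 95% interval of its log2 difference was -0.47 to 0.45.

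The spread of Il2ra was widest in S1PR4-/- Tfh cells. The 6 libraries held 37.8, 40.3, 80.1, 154, 189 and 267 CPM, with 612.5, 538, 735.5, 850.5, 780 and 805 CPM summed over 8 regulatory T cell markers, a list that leaves Il2ra out. The 2 libraries lowest in Il2ra were also the 2 lowest in these markers. WT Tfh libraries spanned 56.9 to 139.5 CPM of Il2ra, and the highest of them also had the highest marker sum, 910.5 CPM. The part of regulatory T cells in the Il2ra level was not tested.

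Il6ra, which binds IL-6 (mm10, chr3:89864059-89913196, minus strand), fell in Tfh cells of both genotypes. WT non-Tfh libraries held 178, 198 and 226 CPM (lowest, median, highest) and WT Tfh libraries 79.0, 95.6 and 119 CPM. The log2 fold change was -1.07 ± 0.0894 (adjusted p = 7.76e-08) in WT and -1.31 ± 0.113 (adjusted p = 1.66e-07) in S1PR4-/- mice. Its partner Il6st, the signal-transducing gp130 chain (mm10, chr13:112464070-112510086, plus strand), differed by less than 1.5-fold. It averaged 304 ± 29.7 CPM in WT Tfh and 385 ± 48.3 CPM in WT non-Tfh cells, a log2 difference of -0.34 (95% interval -0.53 to -0.15, adjusted p = 0.00296).

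Ifngr1, the interferon gamma receptor chain (mm10, chr10:19591949-19610229, plus strand), and Il10ra, the IL-10 receptor chain (mm10, chr9:45253837-45269149, minus strand), were also lower in Tfh cells. Ifngr1 went from 336 ± 65.6 to 165 ± 16.9 CPM in WT, a log2 fold change of -1.03 ± 0.117 (adjusted p = 1.98e-06). Il10ra went from 51.4 ± 11.1 to 23.4 ± 3.03 CPM, a log2 fold change of -1.13 ± 0.137 (adjusted p = 3.72e-06). The log2 fold changes in S1PR4-/- mice were -1.32 ± 0.226 for Ifngr1 (adjusted p = 0.000127) and -0.67 ± 0.173 for Il10ra (adjusted p = 0.00319), and the Il10ra groups overlapped there.

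Il21r, the receptor for the main Tfh cytokine, was the member whose call differed between the genotypes. In WT its lowest, median and highest levels were 327, 382 and 444 CPM in Tfh and 443, 469 and 648 CPM in non-Tfh libraries, a log2 fold change of -0.41 ± 0.0985 (adjusted p = 0.00195), under 1.5-fold. Those of S1PR4-/- mice were 232, 322 and 426 CPM against 485, 599.5 and 904 CPM, a log2 fold change of -0.95 ± 0.168 (adjusted p = 0.000159). The test of this difference between the genotypes gave a log2 value of -0.57 with an unadjusted p of 0.0122 and an adjusted p of 0.405, and it did not pass.

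GC B cells differed from non-GC B cells in fewer members. In WT, 4 members were lower in GC B cells (Il10ra, Il2rg, Il4ra and Il6ra), 1 was higher (Il2rb) and 5 did not pass. Over all 13324 genes tested 47.8% were called, 24.8% higher and 23.1% lower, so that 5 of 10 members is close to the share of all genes. The 5 members called in S1PR4-/- mice, of 9 tested, were those called in WT, against 48.2% of genes.

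Il10ra had the largest called fall. The 5 WT non-GC B libraries held 446, 440.2, 329.8, 486 and 446 CPM, and the 6 WT GC B libraries 60.1, 105.9 and 219 CPM (lowest, median, highest). All GC B values lay below all non-GC B values, with a log2 fold change of -1.86 ± 0.282 (adjusted p = 7.44e-05). Within WT GC B replicates 1 to 6 Il10ra was at 105.7, 60.1, 61.1, 106.2, 128.5 and 219 CPM, beside 1695, 817, 1026, 1644, 1999 and 3365 CPM summed over 6 naive B cell markers, which were at 7884 to 8860 CPM in WT non-GC B libraries. The library highest in these markers was also the highest in Il10ra, and the lowest the lowest. The part of naive B cells in the Il10ra level was not tested. The 4 S1PR4-/- non-GC B libraries held 353, 342, 455 and 315.5 CPM and the GC B libraries 52.0, 86.1 and 131.8 CPM, a log2 fold change of -2.00 ± 0.208 (adjusted p = 7.94e-06).

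Il4ra and Il2rg fell together in GC B cells. Il4ra was at 706, 729, 850.3, 697 and 586 CPM in the WT non-GC B libraries and at 238, 319 and 386.5 CPM (lowest, median, highest) in WT GC B libraries, a log2 fold change of -1.13 ± 0.13 (adjusted p = 6.67e-06). The S1PR4-/- log2 fold change was -1.24 ± 0.125 (adjusted p = 5.95e-06). Il2rg, at 910, 902, 1048, 1261 and 984 CPM in WT non-GC B libraries, ranged from 283.5 to 615.5 CPM in WT GC B libraries, a log2 fold change of -1.22 ± 0.168 (adjusted p = 3.35e-05). For S1PR4-/- mice it was -1.55 ± 0.0881 (adjusted p = 8.91e-08). Neither gene's groups overlapped.

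Il2rb was the only member called higher in GC B cells, and the WT result rested on few counts in an uneven group. Il2rb was at 1.08, 4.20, 0.893, 19.6 and 15.7 CPM in WT non-GC B replicates 1 to 5 and at 17.2, 25.2 and 37.2 CPM (lowest, median, highest) in WT GC B libraries, so the groups overlapped. The log2 fold change was 1.77 ± 0.674 (adjusted p = 0.0333). Non-GC B replicates 4 and 5, which were highest in Il2rb, also held 33.9 and 13.8 CPM summed over 4 natural killer (NK) cell markers and 8.87 and 7.002 CPM summed over 2 CD8 T cell markers, against at most 0.754 and 0.210 CPM in the other three. Without these 2 libraries, an alternative chosen after seeing the data, the log2 fold change of Il2rb was 3.81 (adjusted p = 9.51e-05). Leaving out GC B replicate 1 or 5 or non-GC B replicate 1 or 2 ended the call, with adjusted p from 0.0525 to 0.0747. Among S1PR4-/- libraries Il2rb was at 3.65, 8.57, 3.23 and 10.6 CPM in non-GC B libraries and at 22.3 to 26.8 CPM in GC B libraries, with a log2 fold change of 1.96 ± 0.317 (adjusted p = 0.000228). Those non-GC B libraries, replicates 1 to 4, held 0, 14.49, 4.78 and 13.45 CPM of the NK cell markers. Their CD8 T cell markers summed to 0.677, 2.02, 3.12 and 5.71 CPM. Replicates 2 and 4, the highest in Il2rb, were also the highest in the NK cell markers. The part of NK or T cells in these levels was not tested.

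Il6ra was a low transcript in B cells. WT non-GC B libraries held 18.2, 16.6, 22.3, 17.1 and 13.8 CPM and WT GC B libraries 8.76 to 13.6 CPM. The log2 fold change was -0.65 ± 0.153 (adjusted p = 0.00214), and without non-GC B replicate 3 it was -0.55, under 1.5-fold. In S1PR4-/- mice it was -0.86 ± 0.144 (adjusted p = 0.000305).

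The other 5 members did not pass in WT GC B cells. Ifngr1 was the most even, at 191 ± 32.6 CPM in GC B and 190.0 ± 3.12 CPM in non-GC B cells, with a 95% interval of the log2 difference from -0.15 to 0.29. Il21r averaged 412 ± 51.9 CPM in GC B and 509 ± 78.9 CPM in non-GC B cells (log2 difference -0.24, 95% interval -0.49 to 0.00276). Il2ra was at 1.90 ± 1.18 CPM in GC B and 2.17 ± 0.645 CPM in non-GC B cells. Il7r was near the limit of detection, at 0 to 25 counts in WT and 0 to 7 counts in S1PR4-/- GC B libraries, and at 0.390, 0.0328, 1.18, 2.23 and 3.48 CPM in WT non-GC B libraries. The highest 2 of these 5 Il7r values were in replicates 4 and 5, which carried the NK and CD8 T cell markers. The WT log2 difference of Il7r was -2.13 (95% interval -4.27 to 0.013, adjusted p = 0.073). Without those 2 libraries it was -0.69 (adjusted p = 0.607), and without non-GC B replicate 2 it passed, at -2.44 (adjusted p = 0.0299).

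The GC B libraries differed widely in Il6st and in plasma cell markers. WT GC B replicates 1 to 6 held 12.4, 24.6, 15.4, 11.2, 15.8 and 14.96 CPM of Il6st, beside 5186, 8886, 5093, 4043, 4243 and 4569 CPM summed over 8 plasma cell markers. S1PR4-/- GC B replicates 1 to 6 held 16.7, 26.0, 52.9, 6.58, 4.61 and 5.19 CPM, beside 5701, 8504, 17950, 2061, 2468 and 2091 CPM. In both genotypes the library highest in the plasma cell markers was the highest in Il6st. The log2 difference from non-GC B cells was -0.24 (95% interval -0.70 to 0.22) in WT and -0.21 (-1.63 to 1.2) in S1PR4-/- mice. The part of plasma cells in these levels was not tested.

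**Figure D2:**
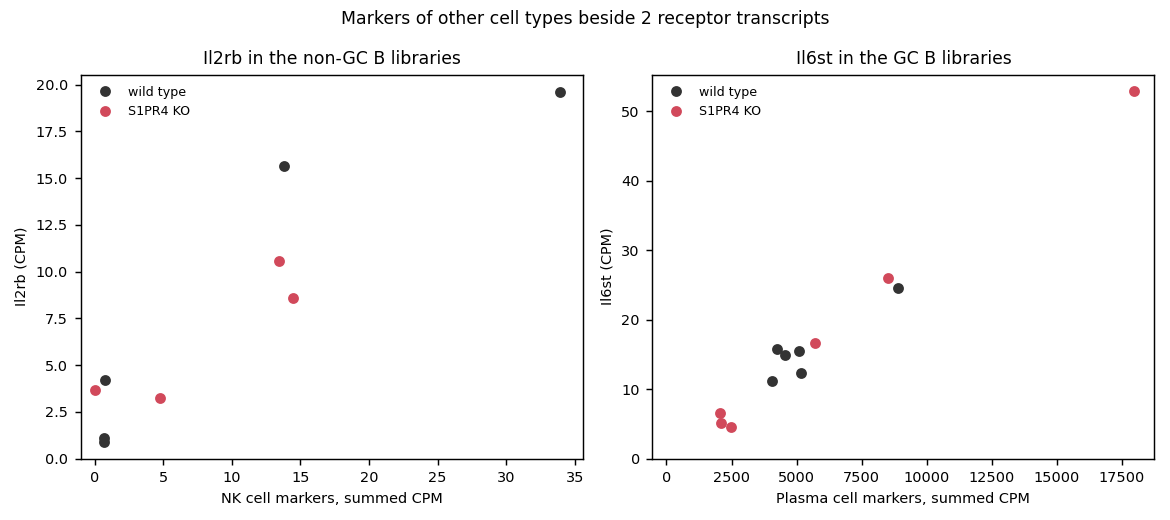
Left, Il2rb level against the summed level of 4 NK cell markers in the 9 non-GC B libraries. Right, Il6st level against the summed level of 8 plasma cell markers in the 12 GC B libraries. Each point is 1 library in CPM, black for WT and red for S1PR4-/-. The libraries with 19.6 CPM of Il2rb and with 52.9 CPM of Il6st are those with the highest marker sums, 33.9 and 17950 CPM.

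The difference between germinal center and other cells was itself not the same in B and T lymphocytes for 4 members in WT, by the edgeR test of the difference of the differences. Over all 15101 genes tested 41.7% differed at an adjusted p under 0.05, so that 4 of 10 is close to the background. Il4ra fell less in B than in T cells, by 1.41 ± 0.157 on the log2 scale (adjusted p = 1.87e-07), and Ifngr1, which fell in Tfh cells, differed by 1.04 ± 0.169 (adjusted p = 3.38e-05). The difference was 2.43 ± 0.887 for Il7r (adjusted p = 0.0308) and -0.58 ± 0.207 for Il2rg (adjusted p = 0.0286), whose fall was larger in B cells. The calls of Il7r and Il2rg were lost without WT Tfh replicates 1 to 3, the WT Tfh libraries highest in B cell markers, at adjusted p of 0.0531 and 0.106. This alternative was chosen after seeing the data and leaves 3 WT Tfh libraries. Il7r also lost its call without GC B replicate 4, 5 or 6 (adjusted p = 0.0646 to 0.135), and Il2rg without GC B replicate 3, non-GC B replicate 4 or Tfh replicate 1 (adjusted p = 0.0505 to 0.0648). Without the 2 non-GC B libraries highest in NK cell markers, Il2rb differed between the lineages by 2.39 (adjusted p = 0.000333), against 0.36 (adjusted p = 0.701) with them, and the call of Il2rg was lost (adjusted p = 0.0982).

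B lymphocytes held less of most of these receptor transcripts than T lymphocytes did. Between WT non-GC B and non-Tfh cells, 7 members were lower in B cells, 1 was higher (Il10ra) and 2 did not pass, against 38.9% of 13669 genes called. Between WT GC B and Tfh cells, 6 were lower in B cells and 2 higher (Il10ra and Il4ra), against 44.3% of 13719 genes. Because the populations were sorted on day 9 and day 6, these differences cannot be told apart from those of the day.

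The members far lower in B cells were Il7r, Il2ra, Il2rb, Il6st and Il6ra. Between non-GC B and non-Tfh cells their log2 differences were -8.75 ± 0.57 for Il7r, -5.23 ± 0.247 for Il2ra, -4.92 ± 0.707 for Il2rb, -4.25 ± 0.162 for Il6st and -3.46 ± 0.119 for Il6ra (largest adjusted p = 4.04e-05, for Il2rb). Between GC B and Tfh cells the log2 differences of Il2ra, Il2rb, Il6st and Il6ra lay from -5.45 to -3.16, and that of Il7r was -6.36 ± 0.563 (adjusted p = 2.47e-07). The Il2rb level of WT non-GC B cells includes the 2 libraries with NK cell markers, and without them its log2 difference was -6.97 (adjusted p = 5.89e-07). In both comparisons the groups were apart for these 5 genes, and the share of all genes with groups apart was not computed.

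Il10ra had the opposite pattern, at 430 ± 58.7 CPM in WT non-GC B and 51.4 ± 11.1 CPM in WT non-Tfh cells, a log2 difference of 3.12 ± 0.151 (adjusted p = 6.27e-10), and 2.29 ± 0.276 between GC B and Tfh cells (adjusted p = 5.44e-06). Il4ra stood at 714 ± 94.1 and 602 ± 58.9 CPM in WT non-GC B and non-Tfh cells, under 1.5-fold apart (log2 difference 0.31, adjusted p = 0.014). Between GC B and Tfh cells it differed by 1.67 ± 0.117 (adjusted p = 2.23e-08). Il21r was the member most alike in the lineages, with log2 differences of 0.07 (95% interval -0.19 to 0.34) outside and 0.12 (-0.08 to 0.32) inside the germinal center. Ifngr1 was lower in B cells outside it (-0.76 ± 0.121, adjusted p = 0.000104), and the interval of its difference inside it was -0.01 to 0.46.

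**Figure D3:**
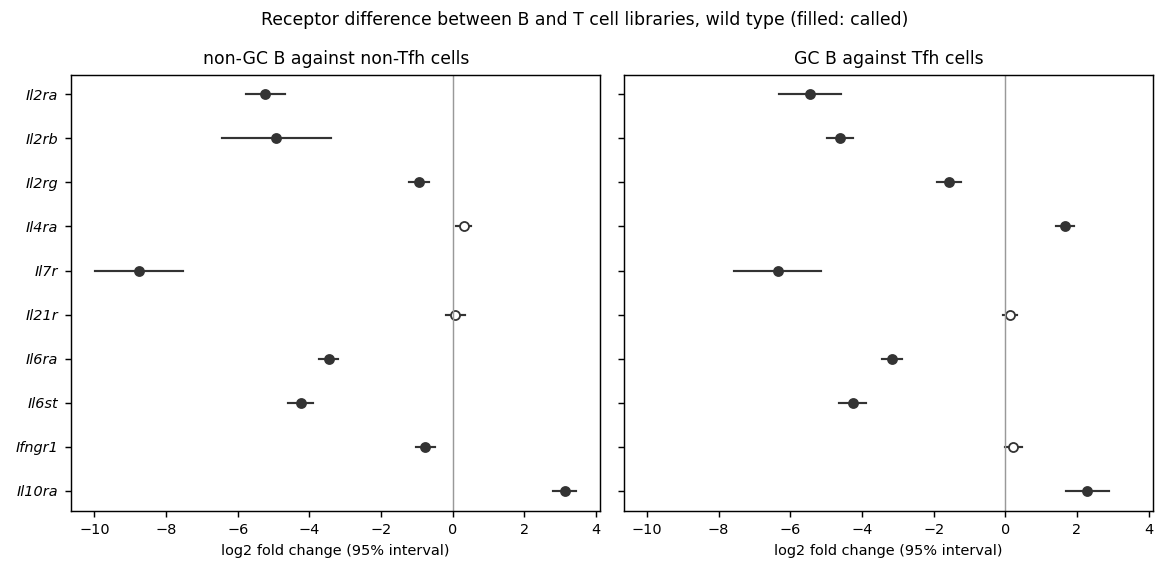
Log2 difference of each receptor transcript between WT B and T cell libraries with its 95% interval, for non-GC B against non-Tfh and for GC B against Tfh cells on a shared axis; filled points are called. Il7r, Il2ra, Il2rb, Il6st and Il6ra lie between -8.75 and -3.16, and Il10ra is on the other side at 3.12 and 2.29.

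Divided by the summed length of each gene's exons, Il2rg was the most abundant of the 10 transcripts in all 4 WT populations, at 857 CPM per kb in non-Tfh, 527 in Tfh, 428 in non-GC B and 176 in GC B cells. Second came Il21r in non-Tfh, non-GC B and GC B cells, at 152, 153 and 124 CPM per kb, and Il2rb in Tfh cells, at 155 CPM per kb. Il7r took the third place in non-Tfh cells (138 CPM per kb) and last in the other 3 populations, at 5.65 in Tfh, 0.314 in non-GC B and 0.0688 CPM per kb in GC B cells. Il4ra held the fifth place in non-Tfh (100 CPM per kb) and the sixth in Tfh cells (16.5 CPM per kb).

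In the order of the 8 group means, most neighbours overlapped. For Il7r the order ran from the non-Tfh groups over the Tfh groups and the non-GC B groups to the GC B groups, with no overlap between non-Tfh and Tfh or between Tfh and non-GC B libraries. Il4ra was highest in the non-GC B and non-Tfh groups, which overlapped, followed by the GC B, WT Tfh and S1PR4-/- Tfh groups, each apart from the one before, except that the 2 GC B groups overlapped. For Il21r and Ifngr1 each group overlapped the next in the order.

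The comparison of genotypes addresses whether the loss of S1PR4 altered receptor transcripts within a population. Of the 10 members 0 passed the edgeR test in each of the 4 populations, where 0.496% of 13495 genes were called in Tfh, 0.114% of 13197 in non-Tfh, 0.0612% of 13070 in GC B and 0.0537% of 13038 in non-GC B cells. Without adjustment, a p under 0.05 was reached by 4 members in Tfh cells, where 19.2% of all genes reached it, by 4 in non-Tfh cells (11.3% of genes), by 0 in GC B cells (4.13%) and by 0 in non-GC B cells (4.55%). DESeq2 called 1 member in Tfh cells, Il7r, and 0 in the others. By the levels of Xist and Ddx3y, sex was uneven between the genotypes in T cells. In WT, replicate 3 was male and the other Tfh and non-Tfh libraries were female. In S1PR4-/- mice, replicates 1, 2, 3 and 6 of both populations were male and replicates 4 and 5 female. Genotype and sex are therefore partly mixed there. The Xist level served as a covariate in 1 alternative fit.

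In Tfh cells the 4 members were all lower in S1PR4-/- mice. Il4ra ranged from 88.0 to 111.7 CPM in WT and from 63.6 to 87.7 CPM in S1PR4-/- Tfh libraries, without overlap. Its log2 difference was -0.37 ± 0.0889, with an adjusted p of 0.0537 and a range of adjusted p from 0.00579 to 0.482 over 23 alternatives, and it stayed under 1.5-fold. Il7r, at 14.1 to 35.4 CPM in WT and 10.3 to 19.7 CPM in S1PR4-/- libraries, had a log2 difference of -0.78 ± 0.21 (adjusted p = 0.0714). Its call was gained with DESeq2 (adjusted p = 0.00658), with a regulatory T cell marker covariate (adjusted p = 0.0356) and without WT Tfh replicate 1 (adjusted p = 0.0406), and its adjusted p ranged from 0.00658 to 0.334 over 23 alternatives. For Ifngr1 and Il6ra the log2 differences were -0.33 ± 0.117 (adjusted p = 0.141) and -0.29 ± 0.121 (adjusted p = 0.206). The other 6 members lay between -0.25 and 0.60, with Il2ra at the upper end, where the interval reached 1.51. Within their group, S1PR4-/- Tfh replicates 3 and 6 were lowest in Il4ra (63.6 and 65 CPM) and Il7r (10.3 and 11.35 CPM). They were also lowest in Ifngr1 (89.7 and 111.3 CPM, the others 140.6 to 153.9 CPM) and highest in Il6ra (109.4 and 82.1 CPM). Replicate 6 also held 431.6 CPM summed over 10 myeloid and dendritic cell markers, against at most 70.05 CPM in the others. No fit left out both replicates together.

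The 11 B cell markers without Cd22 summed to 212, 316, 223, 62.3, 64.3 and 22.6 CPM in WT Tfh replicates 1 to 6 and to 8.65, 7.17, 134.6, 11.4, 16.7 and 19.5 CPM in S1PR4-/- Tfh replicates 1 to 6, so that the groups overlapped through S1PR4-/- replicate 3. The WT GC B means of Il4ra and Ifngr1 were 311.6 and 191 CPM. Without the 4 Tfh libraries highest in all 12 B cell markers, WT replicates 1 to 3 and S1PR4-/- replicate 3, which leaves 3 WT against 5 S1PR4-/- libraries, the log2 differences in Tfh cells were -0.23 for Il4ra (adjusted p = 0.482) and -0.74 for Il7r (adjusted p = 0.318), with 0 members called. Il7r was under 4 CPM in all B cell libraries. The part of B cells in these differences was not tested. Over 6 naive T cell markers the WT Tfh libraries summed to 1910 to 2248 CPM and the S1PR4-/- Tfh libraries to 1161 to 1786 CPM, without overlap. S1PR4-/- Tfh replicates 6 and 3 were the lowest, at 1161 and 1321 CPM. The part of naive T cells in these differences was not tested either.

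In non-Tfh cells the 4 members at an unadjusted p under 0.05 were Il2rb, Il2ra and Il21r, with higher, and Il7r, with lower levels in S1PR4-/- mice. Il2rb was at 118 to 322 CPM in WT and 285 to 578 CPM in S1PR4-/- libraries, a log2 difference of 0.61 ± 0.207 (adjusted p = 0.268). Il2ra was at 47.0 to 99.7 and 82.5 to 156 CPM, a log2 difference of 0.46 ± 0.176 (adjusted p = 0.34). The values were 0.31 ± 0.13 for Il21r (adjusted p = 0.379) and -0.35 ± 0.133 for Il7r (adjusted p = 0.338), and all groups overlapped. The 6 naive T cell markers summed to 7520 to 8393 CPM in WT and 6411 to 7360 CPM in S1PR4-/- non-Tfh libraries, without overlap. Their part in these differences was not tested. The regulatory T cell marker sums ran from 411.7 to 716 CPM in WT and from 603 to 1047 CPM in S1PR4-/- non-Tfh libraries. WT replicate 4 was the lowest and S1PR4-/- replicate 1 the highest of the 12 libraries in these markers, in Il2rb and in Il2ra. With the regulatory T cell marker covariate the log2 differences were 0.36 for Il2rb (adjusted p = 0.458) and 0.26 for Il2ra (adjusted p = 0.645), and with the B cell marker covariate 0.43 and 0.20 (adjusted p = 0.772 and 0.882).

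In GC B cells 9 members were tested, and their log2 differences lay between -0.47 and 0.26. For 6 of them the 95% interval stayed within 1.5-fold in both directions, and the intervals of Il2ra, Il6st and Il10ra did not. In non-GC B cells the 10 members lay between -0.34 and 0.30, and 6 intervals stayed within 1.5-fold. Il2rb and Il7r, with few counts there, had intervals from -2.13 to 1.44 and from -2.10 to 2.69. The Ifngr1 levels did not overlap in non-GC B cells, at 186.6 to 193 CPM in WT and 195.7 to 215 CPM in S1PR4-/- libraries, a log2 difference whose interval was -0.04 to 0.21.

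**Figure D4:**
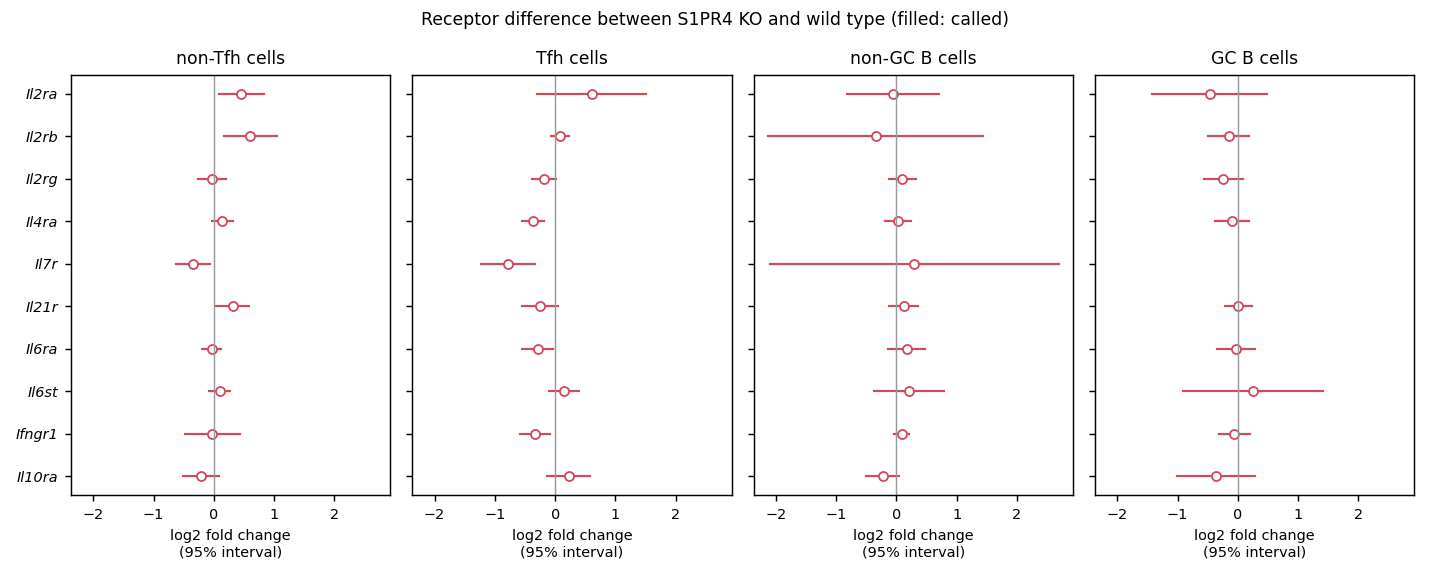
Log2 difference of each receptor transcript between S1PR4-/- and WT libraries with its 95% interval in non-Tfh, Tfh, non-GC B and GC B cells on a shared axis; open points are not called, and no point is filled. The widest intervals are those of Il2rb and Il7r in non-GC B cells, and Il7r was not tested in GC B cells.

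Whether the genotype difference itself differed between populations was tested by the interaction. Among T cells 0 of 10 members passed, against 0.0139% of 14401 genes. An unadjusted edgeR p under 0.05 was reached by 3, which were Il4ra (-0.51 ± 0.127, adjusted p = 0.178), Il21r (-0.57 ± 0.21, adjusted p = 0.405) and Il2rb (-0.52 ± 0.245, adjusted p = 0.525). DESeq2 called 1 of them, Il4ra (adjusted p = 0.0319), and over 32 alternatives the adjusted p of Il4ra ranged from 0.0319 to 0.742. In both genotypes Il4ra was lower in Tfh than in non-Tfh cells, from 602 to 98.8 CPM in WT and from 665 to 77.0 CPM in S1PR4-/- mice (group means). Among B cells 0 members passed, with 0 at an unadjusted p under 0.05, and 0% of 14490 genes passed by edgeR, with 664 genes at an unadjusted p under 0.05 and 6 genes called by DESeq2.

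The ligands, partner chains and signaling genes of these receptors came from a list written alongside the members. Of 14 ligand genes 5 were tested in WT T cells, and 4 were higher in Tfh cells. The strongest were Il21 (log2 fold change 7.18 ± 0.241, 135 against 0.920 CPM), Il4 (6.20 ± 0.368, 10.3 against 0.137 CPM) and Il10 (3.24 ± 0.431, 1.57 against 0.163 CPM), whose receptor chains Il21r, Il4ra and Il10ra were each lower or under 1.5-fold changed in the same libraries. Of 29 other receptor chains 25 were tested, 14 higher and 3 lower in Tfh cells, where 22.8% of all genes were called higher and 20.4% lower. Il1r1, the signaling IL-1 receptor, was at 214 against 2.96 CPM (log2 fold change 6.19 ± 0.36), Il1r2, the decoy receptor for IL-1, at 102 against 5.48 CPM (4.22 ± 0.373), and Csf2rb, the shared beta chain for GM-CSF, IL-3 and IL-5, at 3.14 against 0.260 CPM (3.58 ± 0.497). Over these 25 chains the median log2 difference was 0.77, against -0.87 over the 10 members.

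Among the kinases Jak2 was higher (0.90 ± 0.0934) and Jak1 lower (-0.74 ± 0.0615) in WT Tfh cells, and 2 of 4 did not pass. Of 7 STAT genes Stat4 (0.85 ± 0.0689) and Stat5a (0.67 ± 0.082) were higher and Stat6, which acts downstream of IL-4, was lower (-0.63 ± 0.0599). Of 13 inhibitors 3 were higher and 3 lower. With 43.2% of all genes called, the counts of kinases, STAT genes and inhibitors are near the background. The inhibitors with the largest changes were Socs1 (1.405 ± 0.203), Ptpn11 (1.17 ± 0.0934) and Pias1 (-0.92 ± 0.0466). In S1PR4-/- mice 1 STAT gene was called higher and 2 were called lower in Tfh cells. Over all genes 22.3% were called higher and 21.1% lower there.

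In WT GC B cells 24.8% of all genes were called higher and 23.1% lower. Of 20 receptor chains tested 11 were lower and 3 higher, with a median log2 difference of -1.04. Lifr, the receptor for leukemia inhibitory factor, was at 3.43 against 43.0 CPM in non-GC B cells (-3.58 ± 0.253), Il27ra at 13.6 against 86.4 CPM (-2.60 ± 0.262), and Il1r2 was higher, at 5.07 against 0.477 CPM (3.47 ± 0.504). Jak1, Jak2 and Jak3 were lower (-0.69 ± 0.112, -0.68 ± 0.16 and -0.59 ± 0.124), and 5 of 7 STAT genes were lower, among them Stat4 (-1.43 ± 0.212), Stat6 (-1.27 ± 0.103) and Stat2 (-0.96 ± 0.213). In S1PR4-/- mice 1 of 4 kinases was called lower in GC B cells, with all 4 log2 differences negative, and 4 of 7 STAT genes were called lower. Over all genes 22.9% were called lower there. In WT the falls of Jak2 and Jak3 lay close to the 1.5-fold limit. That of Jak3 was under it without any 1 of GC B replicates 2 to 4 or non-GC B replicates 1 and 3 and also by DESeq2 (-0.58), and that of Jak2 without non-GC B replicate 3. Of 13 inhibitors 5 were lower and 2 higher, close to the 47.8% of all genes called. Socs5 was at 3.91 against 36.9 CPM (-3.18 ± 0.31), while Socs2 (3.92 ± 0.642) and Cish (2.90 ± 0.633, 1.93 against 0.268 CPM), which are known targets of STAT5, were higher. In S1PR4-/- mice Cish did not pass, at 2.03 against 1.48 CPM (log2 difference 0.50 ± 0.895, adjusted p = 0.641). Of 2 ligand genes tested Il12a was lower (-1.95 ± 0.216).

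Between genotypes 1 gene of these lists passed in all 4 populations together. Cish was higher in S1PR4-/- non-Tfh cells, at 61.9 against 29.7 CPM, a log2 difference of 1.06 with an adjusted p of 0.0381. The adjusted p ranged from 1.47e-05 to 0.477 over 22 alternatives, and 12 of them ended the call, among them leaving out any 1 of the 6 S1PR4-/- libraries or WT replicate 2 or 3. With the Xist level as a covariate for sex the log2 difference was 1.03 (adjusted p = 0.21).

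Over the 45 libraries the genes with the pattern most like a member's were named by Pearson's correlation of log2 CPM, as a description. The libraries share 8 groups, so that a high value mostly reflects the same order of the groups. Il4ra went most closely with Ifngr2, the second interferon gamma receptor chain (r = 0.965, n = 45), and Il21r with Zkscan3 (r = 0.827) and Il4ra (r = 0.803). Il6ra went with Znrf1 (r = 0.99) and Lef1, a transcription factor of naive T cells (r = 0.984), Il2rg with Gimap3 (r = 0.986), Il6st with Rcbtb1 (r = 0.984) and Il2ra with Slc9a3r1 (r = 0.979). For Il10ra, Il2rb, Il7r and Ifngr1 the closest were Dmac2 (r = 0.972), 1700097N02Rik (r = 0.97), Apol7e (r = 0.964) and Gramd3 (r = 0.872). Among the members themselves Il7r and Il6ra were the closest pair (r = 0.952) and Il2rb and Il10ra the most opposed (r = -0.90).

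Annotated genes overlap 5 of the members. Gm20489 overlaps Il2rg on the same strand and held at most 8.09 expected counts in any library, and Gm37881 overlaps Il2ra with at most 28. The antisense genes Gm44876 at Il4ra and Gm42809 at Il6ra held at most 2 and 304, and Gm20612 and Mir7086 at Il10ra were at 0. The library kit keeps the strand, while the strand setting of the counting is not given in the sources used here.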

How the data were processed

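RNA was isolated from sorted lymphocytes and sequenced after a stranded total RNA library preparation with ribosomal RNA removal. The labels also name polyA RNA as the molecule. After trimming by Cutadapt 2.10 and alignment by STAR 2.5.3 (mouse genome mm10), the authors used RSEM 1.3.0, and they deposited its expected counts per gene for 45 samples without normalization. The methods name GENCODE release M30, while the identifiers in the table match release M21, from which positions and exon lengths were taken. Of all values, 8.83% were not whole. Library totals ran from 26299429 to 45548215, and counting error is smallest for the abundant members and largest for Il7r and Il2ra in B cells.

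Counts were rounded, and genes with low counts were left out by filterByExpr within each comparison. edgeR 4.0.16 (R 4.3.3) with TMM factors (0.814 to 1.07) and the quasi-likelihood F test was fitted to the groups compared, p-values were adjusted by Benjamini-Hochberg over all genes tested, and a gene was called at an adjusted p under 0.05 with a fold over 1.5, interactions by the adjusted p alone. The steps were tested on simulated data. CPM used TMM factors over all 45 samples. From the lists of ligands, receptor chains, kinases, STATs and inhibitors, the text names up to 3 called genes each with the largest change and a mean of at least 1 CPM in a group. Between genotypes, members with an unadjusted p under 0.05 are named, and those named beside them for a wide interval or separate groups were chosen after their values were seen. The alternatives were RLE factors, total counts, no filter, DESeq2 1.42.0, limma voom 3.58.1, a fit of all 8 groups, a replicate block, covariates for Xist, B cell or regulatory T cell markers, and leaving out each library. Leaving out 4 Tfh or 2 non-GC B libraries by their marker levels was added after seeing the data. The members and lists were chosen with earlier results of these data known.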

Additional observations from a re-analysis of the deposited data

Results flagged for a closer look

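In 6 of 80 sets of libraries, a set being 1 gene in 1 group, the highest or lowest library stood apart from the others by Dixon's criterion, where chance alone gives about 4. S1PR4-/- non-GC B replicate 1 held 3.113 CPM of Il2ra, with the other libraries at 1.654 to 1.799 CPM. WT non-Tfh replicate 4 held 117.8 CPM of Il2rb, with the others at 247.9 to 321.6 CPM, and also had the lowest regulatory T cell marker sum of its group, 411.7 CPM. S1PR4-/- non-Tfh replicate 1 held 903.6 CPM of Il21r, with the others at 485.1 to 626.2 CPM, and had the highest regulatory T cell marker sum of its group, 1047 CPM. S1PR4-/- Tfh replicate 3 held 109.4 CPM of Il6ra, with the others at 66.66 to 82.09 CPM, and was the library of its group highest in B cell markers, at 134.6 CPM without Cd22. The B cell libraries themselves held less Il6ra than any of these, at 8.27 to 22.25 CPM. WT GC B replicate 2 held 24.59 CPM of Il6st, with the others at 11.23 to 15.77 CPM, and had the highest plasma cell marker sum of its group, 8886 CPM. S1PR4-/- non-GC B replicate 3 held 215.3 CPM of Ifngr1, with the others at 195.7 to 197.2 CPM. The part of these marker levels in the receptor levels was not tested.

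In WT the log2 fold change of GC B over non-GC B cells minus that of Tfh over non-Tfh cells passed the edgeR test of that difference for 4 members. It was 2.434 for Il7r, 1.411 for Il4ra, 1.035 for Ifngr1 and -0.5775 for Il2rg on the log2 scale.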

How the results depend on the processing

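Of the counts of called members under other settings, 107 were within 1.5 times of the reported count and 4 were not, and with 1 library left out 180 were and 1 was not. Between genotypes in Tfh cells the count went from 0 to 1 with DESeq2, to 1 with the regulatory T cell marker covariate, and over single libraries left out it ran from 0 to 1, each time through Il7r. For the interaction in T cells it went from 0 to 1 with DESeq2 through Il4ra, and for the difference between lineages from 4 to 2 without WT Tfh replicates 1 to 3, the highest in B cell markers. For single genes, 893 values under other settings kept direction and call, 12 changed sign, 10 gained and 10 lost the call. With 1 library left out 1340 kept both, 19 changed sign, 7 gained and 25 lost the call. No value whose sign changed had passed the test. For Il2ra in Tfh against non-Tfh cells of WT the log2 value was 0.0095 with RLE, 0.0096 with DESeq2, 0.56 and 0.068 with the B cell and regulatory T cell marker covariates, 0.31 without WT Tfh replicates 1 to 3, and -0.21 to 0.083 over libraries left out. In S1PR4-/- mice it was -0.15 with voom, -0.17 with the replicate block and -0.21 to 0.34 over libraries left out. In GC B against non-GC B cells of WT, Ifngr1 was at -0.023 with total counts and Il2ra at 0.058 without the 2 non-GC B libraries highest in NK cell markers and -0.43 to 0.064 over libraries left out. For Il6st in S1PR4-/- B cells libraries left out gave -0.86 to 0.11, and for Il21r between non-GC B and non-Tfh cells -0.011 to 0.15, with -0.066 from total counts. The difference between lineages was -0.0016 with voom for Il6st and -0.14 to 0.12 over libraries left out, -0.0056 without the 2 non-GC B libraries for Il21r, and -0.50 to 0.029 over libraries left out for Il2ra. The cause was not tested.

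Il7r in WT GC B cells passed with DESeq2 (-2.13, adjusted p = 0.0497), all 8 groups (-2.17, adjusted p = 0.00333) and the replicate block (-2.53, adjusted p = 0.0126). Il10ra passed the difference between lineages with DESeq2, voom, all 8 groups and 3 single libraries left out, and Il6ra with 2 left out, while Il7r lost it with voom (adjusted p = 0.184). Over all genes, the calls between genotypes were 67 in Tfh cells by edgeR, 191 by DESeq2, 153 with all 8 groups, 149 with the Xist covariate, 166 with the regulatory T cell marker covariate, 12 with the B cell marker covariate, 13 without WT Tfh replicates 1 to 3 and S1PR4-/- Tfh replicate 3 and 15 to 117 over libraries left out. In non-Tfh cells they were 15, 56 by DESeq2 and 9 with the Xist or B cell marker covariate, in GC B cells 8 and 14 by DESeq2, and in non-GC B cells 7, 16 by DESeq2 and 25 with all 8 groups. The interaction in T cells gave 2 calls, 76 by DESeq2, 10 with the block, 1 with voom or total counts and 0 without these 4 Tfh libraries.

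The replicate block gave 7 and 8 called members for Tfh cells of WT and S1PR4-/- mice, 6 and 5 for GC B cells, and 0 between genotypes. The labels do not say that a number marks 1 mouse, and the main tests took the libraries as unpaired in both lineages. Same-numbered deviations correlated at 0.0454 to 0.205 in WT and 0.0866 to 0.163 in S1PR4-/- T cells, and at -0.0452 to 0.103 in B cells. Each library correlated best with its own number in 6 of 6 S1PR4-/- and 4 of 6 WT T cell pairs. By Xist, same-numbered T cell libraries were of 1 sex in 6 of 6 pairs in each genotype, and B cell libraries in 4 of 5 WT and 1 of 4 S1PR4-/- pairs. Whether the T cell numbers mark 1 mouse is not known. Il7r, with at most 25 counts in a GC B library, did not pass the filter for the test between genotypes there.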
